A study of Mus musculus with 6 samples.

Results

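Expression of 10 genes widely used as markers of astrocytes was followed, gene by gene, in primary cell cultures of mouse fetal cortex treated with vehicle or 10HDA. The genes were Gfap, Aldoc, Aldh1l1, Clu, Slco1c1, Slc1a2, Slc1a3, Aqp4, S100b and Gja1, and their rows were found by gene identifier among the 43346 genes of the count table. All 10 were present, and 9 of them were among the 10520 genes that reached 10 CPM, counts scaled to library totals, in 3 or more libraries. S100b was the exception. The members were picked with the 10HDA comparison of these same libraries already known, so their differences between treatments are given below as descriptions, with standard errors (SE) and without tests.

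The cultures were prepared at gestational day 15.5 and received DMSO as vehicle or 1 mM 10HDA, an unsaturated hydroxy fatty acid found in royal jelly that was studied for its estrogenic action. There were 6 libraries of total RNA, 3 per treatment, and the labels give cultures 1, 3 and 4 a library of each treatment. All 6 libraries carry the strain label Cyp19-EGFP and the genotype label SRY+, but C57BL/6 embryos are named in the study's methods. The methods call the cells primary cortical neurons, and the length of the 10HDA exposure is not given in the sources used here. The libraries held from 9144736 to 13367194 counts on genes, so that 3 counts corresponded to 0.221 to 0.336 CPM (counting error only). In both libraries of culture 1 the Y-linked genes summed to 9.07 and 9.3 CPM, against 97.8 to 136 CPM in the other 4 libraries, which goes against the label of culture 1. Xist, the RNA of the inactive X chromosome of females, had 1032 and 1444 CPM in culture 1 but also 403.1 to 843.5 CPM in the libraries of cultures 3 and 4, so that these too went against a label of male cells alone. Results are therefore also given without culture 1. Nothing in the labels says how many embryos went into a culture.

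Astrocytes are the glial cells that clear glutamate and potassium from around synapses, couple to each other through gap junctions and supply neurons with metabolites. In the mouse cortex they arise from radial glia late in gestation and after birth, when the Notch, BMP and gp130/STAT pathways act together with NFI and SOX9 on astrocyte genes. Some markers, such as Slc1a3, are already made by radial glia, whereas others, such as Gfap and Aqp4, appear as astrocytes mature. In a fetal cortical culture these genes thus report on both radial glia and young astrocytes.

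With 10HDA, all 9 tested markers had lower levels than with vehicle, as had 52.1% of all genes tested. Gfap and Aldh1l1 were at 41.2% and 49.4% of their vehicle means, Aqp4, Aldoc, Clu and Slco1c1 at 56.8% to 66.5%, and Gja1, Slc1a2 and Slc1a3 at 81.4% to 86.9%. The median log2 fold change of the 9 was -0.66, against -0.0095 over all genes tested. Of the genes tested, 0.627% were called by edgeR's quasi-likelihood test at a Benjamini-Hochberg adjusted p under 0.1, with 0.2% higher and 0.428% lower, and 5 of the 9 members were called lower (Gfap, Aldoc, Aldh1l1, Clu and Slco1c1). A fit with culture as a block called 8.98% of the genes tested, 5.08% lower, and 6 members, with Aqp4 added. A filter of 1 CPM in place of 10 gave 0.509% and 4 members, without Slco1c1. Because this contrast helped to choose the members, nothing is read from these counts. Fewer cells of a type and less RNA per cell cannot be told apart in RNA from whole cultures.

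Promoter sequences show what lies ahead of genes whose levels were lower together, and 4 windows are given here, from RefSeq (GRCm38.p6). They cover the 250 bases before the annotated start of Gfap, Aldh1l1 and Slco1c1, 3 late markers that were lower in every culture, and of Slc1a3, an early marker that differed little. Windows of 8 of the 10 members were searched, 9 in all. Each runs 5′ to 3′ on the strand of the gene, and capitals mark matches to the motifs searched on both strands. The motifs were STAT (TTCNNNGAA), NFI (TTGGC, then 5 bases, then GCCAA), the NFI half-site (TTGGCA), SOX (ACAAAG) and the TATA box (TATAAA). The windows are chr11:102897201-102897450 (minus strand) for Gfap, chr6:90550543-90550792 (plus strand) for Aldh1l1, chr6:141524104-141524353 (plus strand) for Slco1c1 and chr15:8710808-8711057 (minus strand) for Slc1a3.
Gfap: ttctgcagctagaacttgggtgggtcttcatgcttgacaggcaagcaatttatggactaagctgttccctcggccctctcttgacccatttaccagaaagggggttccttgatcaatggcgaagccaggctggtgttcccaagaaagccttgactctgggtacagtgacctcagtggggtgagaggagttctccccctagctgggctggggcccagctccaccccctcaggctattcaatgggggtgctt
Aldh1l1: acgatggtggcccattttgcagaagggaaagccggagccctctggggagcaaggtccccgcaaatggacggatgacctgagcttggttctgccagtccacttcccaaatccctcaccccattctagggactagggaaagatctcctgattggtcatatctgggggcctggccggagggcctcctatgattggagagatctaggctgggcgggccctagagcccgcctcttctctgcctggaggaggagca
Slco1c1: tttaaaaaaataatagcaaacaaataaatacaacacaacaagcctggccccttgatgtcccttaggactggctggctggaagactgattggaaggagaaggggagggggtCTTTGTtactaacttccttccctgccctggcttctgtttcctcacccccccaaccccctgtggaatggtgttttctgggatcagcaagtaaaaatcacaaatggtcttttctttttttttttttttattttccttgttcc
Slc1a3: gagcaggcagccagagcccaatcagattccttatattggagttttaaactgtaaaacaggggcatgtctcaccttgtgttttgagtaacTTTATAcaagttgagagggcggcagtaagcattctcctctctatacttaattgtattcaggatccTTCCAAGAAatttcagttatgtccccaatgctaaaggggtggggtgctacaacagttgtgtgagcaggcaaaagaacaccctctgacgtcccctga

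The Gfap and Aldh1l1 windows held none of these letters. The Slco1c1 window had a SOX match 140 bases before the start, and 16.5% of all 32851 windows of this length held such a match. The Slc1a3 window had a STAT match 96 bases before the start, as 7.02% of all windows did, and a TATA match 161 bases before it, as 12.4% did. Of the windows not shown, the second start of Aldoc had 2 STAT matches, and the first start of Aldoc and the start of S100b each had an NFI half-site, which 12.3% of all windows held. The full NFI motif was in none of the members' windows and in 0.0365% of all windows. The starts used for Gfap, Aldh1l1, Slc1a2 and Aldoc lie inside the longer gene models of GENCODE, so that sequence ahead of other starts was not searched. In the first and second Aldoc windows, 105 and 136 of the 250 bases were in annotated exons of the gene.

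Gfap (ENSMUSG00000020932.14, chr11:102887336-102900912, minus strand, GRCm38) encodes glial fibrillary acidic protein, the intermediate filament that defines mature and reactive astrocytes. With vehicle it had 84.6, 65.4 and 103 CPM in cultures 1, 3 and 4. With 10HDA it had 24.1, 38.5 and 41.8 CPM in the same cultures. Every 10HDA library was below every vehicle library, and culture 1 held the lowest value of all. Its log2 fold change was -1.28 (SE 0.21), the largest among the members. It differed between cultures, with -1.81 in culture 1, -0.76 in culture 3 and -1.30 in culture 4, and was -1.05 without culture 1.

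Other intermediate filament genes did not share this. Vimentin (Vim), the filament of radial glia and young astrocytes, had 147 to 177 CPM with vehicle and 192 to 206 CPM with 10HDA. The groups did not overlap, and 10HDA was the higher. Its log2 fold change of 0.32 (SE 0.10) did not pass (adjusted p = 0.31 in the quasi-likelihood test of edgeR) but passed with culture as a block (adjusted p = 0.041). Nestin (Nes), which pairs with vimentin in progenitors, had a log2 fold change of -0.090 (SE 0.10). Of the 7 tested filament genes outside the members, 0 were called, 5 had values below 0, and the median was -0.090.

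Aldh1l1 (ENSMUSG00000030088.15, chr6:90486427-90600203, plus strand) encodes a folate enzyme of the cytosol, and is used to mark astrocytes as a whole class. It had 78.2, 67.3 and 77.6 CPM with vehicle in cultures 1, 3 and 4. It had 36.0, 30.2 and 44.2 CPM with 10HDA. The 3 vehicle libraries lay close together and well above the 3 10HDA libraries. Aldh1l1 had a log2 fold change of -1.02 (SE 0.14), and -1.12, -1.16 and -0.81 in the single cultures. Without culture 1 it was -0.95. An antisense gene, Gm15756, shares exonic bases with Aldh1l1 and had at most 2 counts in a library.

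Among the other enzymes of folate metabolism 9 were tested, of which 7 had values above 0 and 2, Mthfd1 (-0.022) and Fpgs (-0.060), below 0, with a median log2 fold change of 0.31 (0.22 without culture 1), and 0 were called. Under the block 4 were called higher, where 3.91% of all genes tested were. Mthfd2, a mitochondrial folate enzyme, had 55.0 to 64.1 CPM with vehicle and 77.0 to 85.5 CPM with 10HDA, a log2 fold change of 0.42 (SE 0.10, adjusted p = 0.17 in the quasi-likelihood test of edgeR, 0.011 with the block). Aldh1l2, the mitochondrial paralog of Aldh1l1, had a log2 fold change of 0.31 (SE 0.16, adjusted p = 0.53, and 0.079 with the block), and its groups overlapped.

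Aldoc (ENSMUSG00000017390.15, chr11:78322968-78327781, plus strand) encodes aldolase C, the brain form of a glycolytic enzyme, and is made by radial glia as well as by astrocytes. With vehicle it had 210.4, 186 and 207 CPM in cultures 1, 3 and 4. With 10HDA it had 103, 127 and 113 CPM. The groups were far apart, with the lowest vehicle and the highest 10HDA library both from culture 3. The log2 fold change was -0.81 (SE 0.11), and -1.03, -0.54 and -0.87 in the single cultures. Without culture 1 it was -0.68.

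Its paralog Aldoa, the aldolase of most tissues, had a log2 fold change of -0.25 (SE 0.098, adjusted p = 0.44 in the quasi-likelihood test of edgeR). How the counting treated reads that fit both aldolases is not given in the sources used here. Hexokinase 1 (Hk1), which starts glycolysis in brain, had -0.38 (SE 0.12, adjusted p = 0.30, and 0.013 with culture as a block). Of 14 tested glycolysis genes outside the members, 0 were called and 12 had values below 0, with a median of -0.17. With the block, 1 was called lower, where 5.08% of all genes tested were.

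Clu (ENSMUSG00000022037.15, chr14:65968483-65981547, plus strand) encodes clusterin, a secreted apolipoprotein and chaperone of astrocytes. It had 84.8, 77.8 and 88.9 CPM with vehicle in cultures 1, 3 and 4. It had 48.3, 59.1 and 52.0 CPM with 10HDA. The groups did not overlap, and culture 3 again had the smallest gap. For Clu the log2 fold change was -0.66 (SE 0.11), and -0.81, -0.40 and -0.77 in the single cultures.

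Apoe, the main apolipoprotein that astrocytes secrete, had 402 to 545 CPM with vehicle and 298 to 404 CPM with 10HDA. Its groups overlapped at their edges, and its log2 fold change of -0.53 (SE 0.15) did not pass (adjusted p = 0.25 in the quasi-likelihood test of edgeR) but passed with culture as a block (adjusted p = 0.0022). Of the 7 tested lipoprotein genes, receptors and exporters, 0 were called and 6 had values below 0, with a median of -0.078.

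Slco1c1 (ENSMUSG00000030235.17, chr6:141524368-141570177, plus strand) encodes a carrier that takes up thyroxine, in astrocytes and at the blood-brain barrier. It had 20.4, 20.8 and 20.6 CPM with vehicle in cultures 1, 3 and 4. It had 14.1, 13.9 and 13.1 CPM with 10HDA. The libraries of a treatment hardly differed, with a coefficient of variation of 0.946% with vehicle and 3.81% with 10HDA, and the groups were apart. On the log2 scale the fold change was -0.59 (SE 0.12), and -0.53, -0.58 and -0.64 in the single cultures. Its counts were low, 117 to 269 in a library.

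Genes that act with Slco1c1 on thyroid hormone numbered 5 tested, 4 of them below 0 and 0 called, with a median of -0.32 in log2 fold change. Dio2, which turns thyroxine into the active hormone within astrocytes, had -0.67 (SE 0.21, adjusted p = 0.31 in the quasi-likelihood test of edgeR). The receptor Thra had -0.32 (SE 0.11, adjusted p = 0.38). Both were called lower with culture as a block, at adjusted p of 0.0019 and 0.047.

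Aqp4 (ENSMUSG00000024411.10, chromosome 18, minus strand) encodes the water channel of astrocyte endfeet. It had 26.1, 25.4 and 44.7 CPM with vehicle in cultures 1, 3 and 4. It had 14.8, 14.2 and 25.6 CPM with 10HDA. Culture 4 was the highest under both treatments, and its 10HDA library lay just above the vehicle library of culture 3, so that the groups touched. Within each culture the difference was nearly the same, with log2 values of -0.81, -0.84 and -0.80. Over all libraries the log2 fold change was -0.83 with an SE of 0.26, and the SE was 0.12 with culture as a block. Leaving out the vehicle library of culture 4 gave -0.50, and leaving out the 10HDA library of that culture gave -1.14.

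Gja1 (ENSMUSG00000050953.10, chr10:56377330-56402513, plus strand) encodes connexin 43, the gap junction protein that joins astrocytes and, before them, radial glia. It had 47.1, 57.3 and 71.0 CPM with vehicle in cultures 1, 3 and 4. It had 42.6, 45.1 and 55.2 CPM with 10HDA. Each culture was lower with 10HDA, but the groups overlapped, since the 10HDA library of culture 4 lay above the vehicle library of culture 1. The log2 fold change was -0.30 (SE 0.16), and -0.15, -0.34 and -0.36 in the single cultures. Without the vehicle library of culture 4 it was -0.12.

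Among 8 tested partners of Aqp4 and Gja1 at the astrocyte membrane, 0 were called, 7 had values below 0 and the median log2 fold change was -0.081. The potassium channel Kcnj10, which sits beside Aqp4 in endfeet, had 34.1 to 46.1 CPM with vehicle and 23.9 to 32.1 CPM with 10HDA. The groups did not overlap. Its log2 fold change of -0.51 (SE 0.15) did not pass (adjusted p = 0.28 in the quasi-likelihood test of edgeR) but passed with culture as a block (adjusted p = 0.0054). Mlc1, an astrocyte membrane protein, had 0.12 (SE 0.11). Gjb6, the connexin of mature astrocytes, had at most 0.147 CPM in a library.

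Slc1a3 (ENSMUSG00000005360.14, chr15:8634124-8710764, minus strand) encodes GLAST, the glutamate transporter that radial glia carry before astrocytes form. It had 445, 456 and 526 CPM with vehicle in cultures 1, 3 and 4. It had 371, 375 and 473 CPM with 10HDA. Each culture was lower with 10HDA, but the 10HDA library of culture 4 was above the vehicle libraries of the other cultures. The log2 fold change was -0.23 (SE 0.12), and -0.26, -0.28 and -0.15 in the single cultures. It ran from -0.13 without the vehicle library of culture 4 to -0.35 without the 10HDA library of that culture.

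Slc1a2 (ENSMUSG00000005089.15, chr2:102658659-102790784, plus strand) encodes GLT-1, the glutamate transporter that dominates in the mature forebrain. It had 247, 383 and 382 CPM with vehicle in cultures 1, 3 and 4. It had 261, 292 and 326 CPM with 10HDA. The lowest value of all was the vehicle library of culture 1, and the groups overlapped. Culture 1 had a log2 difference of 0.082, the only member and culture above 0, against -0.39 and -0.23 in cultures 3 and 4. Slc1a2 had a log2 fold change of -0.20 (SE 0.16), and -0.29 without culture 1. It ran from -0.36 without the vehicle library of culture 1 to -0.083 without that of culture 3.

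Around the transporters, 9 genes of glutamate and glutamine handling were tested, with 0 called and 6 below 0, and their median was -0.11 in log2 fold change. Glutamine synthetase (Glul), the astrocyte enzyme that disposes of glutamate, had 274 to 309.5 CPM with vehicle and 229 to 259 CPM with 10HDA. Its groups were apart, and its log2 fold change of -0.28 (SE 0.097) did not pass (adjusted p = 0.38 in the quasi-likelihood test of edgeR) but passed with culture as a block (adjusted p = 0.076). The cystine and glutamate exchanger Slc7a11 had 182 to 336 CPM with vehicle and 115 to 211 CPM with 10HDA. The groups overlapped, with a log2 fold change of -0.79 (SE 0.24, adjusted p = 0.30, and 8.6e-06 with the block).

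S100b (ENSMUSG00000033208.7, chr10:76253853-76261159, plus strand) encodes a calcium-binding protein of mature astrocytes and oligodendrocyte progenitors. It had 9, 5 and 10 counts with vehicle in cultures 1, 3 and 4, or 0.824, 0.387 and 0.850 CPM. With 10HDA it had 7, 5 and 5 counts, or 0.614, 0.369 and 0.561 CPM. All were a little above the level of 3 counts, the groups overlapped, and a difference was not detectable at this depth. Without a filter on low counts its log2 fold change was -0.41, with an SE of 0.52.

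**Figure D1:**
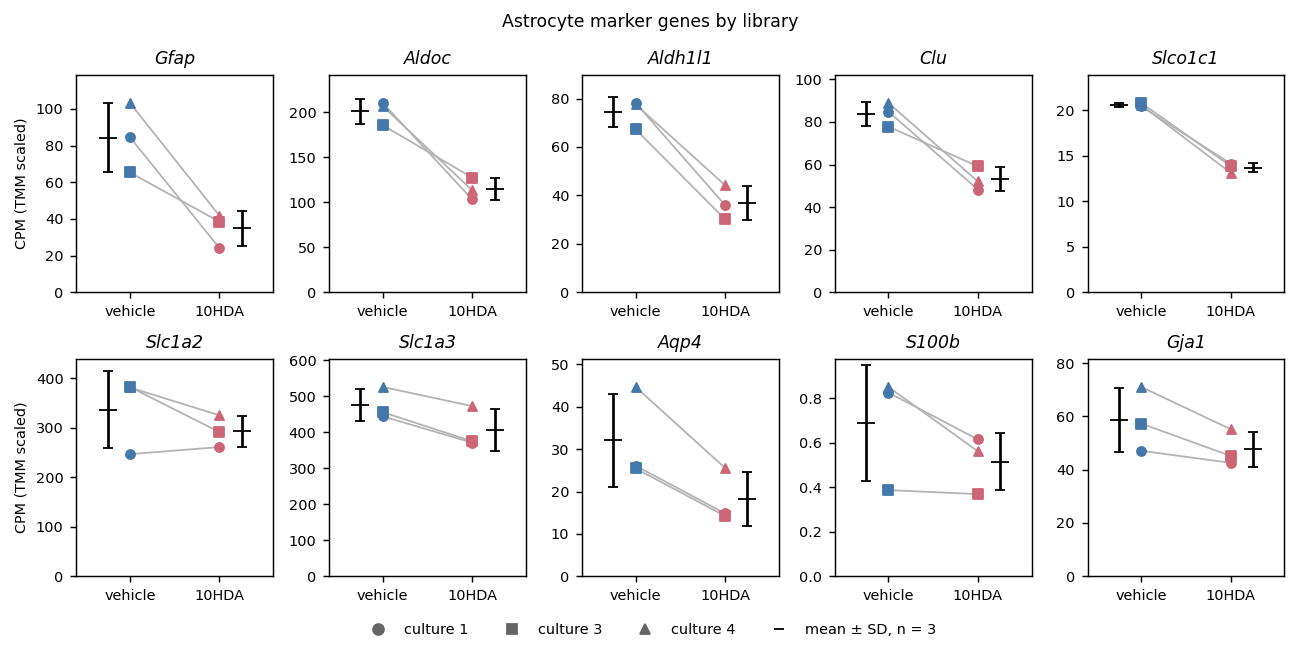
CPM after TMM scaling (y axes, each from 0) of the 10 astrocyte markers in the vehicle and 10HDA libraries. Symbols mark cultures 1, 3 and 4, grey lines join the libraries of a culture, and bars give the mean ± SD (n = 3). The groups are apart for the 5 genes of the top row and overlap for the 5 of the bottom row, where S100b stays under 1 CPM.

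**Figure D2:**
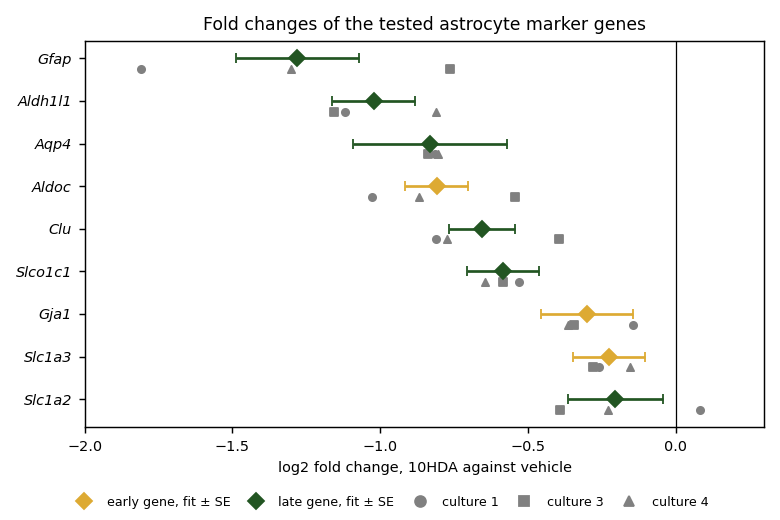
Log2 fold change of the 9 tested markers, 10HDA against vehicle (x axis). Diamonds give the fit with its SE, coloured by early or late class, and grey symbols the difference within each culture. All diamonds lie below 0, from -1.28 for Gfap to -0.20 for Slc1a2, and the culture 1 symbol of Slc1a2 is the only one above 0.

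The SD of the log2 difference over the 3 cultures was 0.52 for Gfap and 0.25 for Aldoc, but 0.057 for Slco1c1 and 0.017 for Aqp4. Counting error was not taken out of these SDs, and counts were 117 to 269 for Slco1c1 and 169 to 526 for Aqp4. An SD of 3 values at such counts does not show that an effect was equal between cultures. Of the 9 tested members, 8 were lower with 10HDA in all 3 cultures, where 20.9% of all genes tested were, and 9 had fold changes below 0 without culture 1, with a median of -0.59. For the members not yet given without culture 1, the log2 fold change was then -0.56 for Clu, -0.59 for Slco1c1, -0.81 for Aqp4, -0.34 for Gja1 and -0.19 for Slc1a3. No member was called in the 4 libraries that remained, where 2 genes were called in all (665 at an unadjusted p under 0.05). The median difference of the 9 was -0.81 in culture 1, -0.54 in culture 3 and -0.77 in culture 4. Libraries did not overlap between treatments for 5 members, and for 7.44% of all genes tested with 10HDA the lower.

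Levels between the markers were compared per kilobase of the gene length given in the count table. With vehicle, Aldoc and Slc1a3 were the most abundant, at 61.6 ± 4.11 and 55.7 ± 5.18 CPM per kilobase (SD, n = 3), and their libraries overlapped. Slc1a2, Clu, Gfap, Gja1 and Aldh1l1 followed at 25.7 down to 16.5 CPM per kilobase, with each neighbour in that order overlapping the next. Slco1c1 and Aqp4 came at 6.48 and 6.31 and overlapped, and S100b stood apart at 0.463. With 10HDA, Slc1a3 was first at 47.6 ± 6.75 and Aldoc next at 35.1 ± 3.74 CPM per kilobase, no longer overlapping. Gja1 moved above Gfap, with 15.3 ± 2.15 against 8.25 ± 2.23 CPM per kilobase, also without overlap. The length in the table was 3105 bases for Gja1, 3178 for Slco1c1 and 5082 for Aqp4, whereas all annotated exons of GENCODE M21 cover 10257, 5186 and 6233 bases, so the places of these 3 depend on the gene model.

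The markers were divided into those that radial glia already make and those of later astrocytes. The 3 early members, Slc1a3, Aldoc and Gja1, had a median of -0.30 in log2 fold change, from -0.81 to -0.23. The 6 tested late members, Gfap, Aldh1l1, Clu, Slco1c1, Slc1a2 and Aqp4, had a median of -0.74, from -1.28 to -0.20. The ranges overlapped, since the early gene Aldoc had a larger difference than the late genes Clu, Slco1c1 and Slc1a2. The late median was the lower in each culture, with -0.81, -0.67 and -0.79 against -0.26, -0.34 and -0.36 for the early genes. Without culture 1 the medians were -0.70 and -0.34. No test of the classes was run, because the members were chosen on this contrast. With 3 and 6 genes the medians depend on the class given to single genes, such as Aldh1l1 (-1.02), and other divisions were not tried.

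Genes of both classes outside the members were read from longer lists. These lists, like all others used here, were drawn up with earlier results of these data known. Their counts are therefore descriptions, set beside the shares of all genes tested. Of 28 further late astrocyte genes, 17 were tested, 13 had values below 0 and 2 were called lower, where 0.428% of all genes tested were. Their median log2 fold change was -0.28 (-0.21 without culture 1). Ppp1r3c, which directs glycogen storage, fell from 40.3 ± 2.75 CPM with vehicle to 22.4 ± 3.88 CPM (SD, n = 3), which is -0.86 in log2 fold change (SE 0.14, adjusted p = 0.043 in the quasi-likelihood test of edgeR). Cbs, an enzyme that makes cystathionine and hydrogen sulfide, fell from 26.1 ± 2.82 CPM to 16.2 ± 1.61 CPM, or -0.69 (SE 0.14, adjusted p = 0.072 from the same test). In both genes every 10HDA library was below every vehicle library. Under the block 9 of the 17 were called lower, among them Apoe and Kcnj10, where 5.08% of all genes tested were.

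Of 20 further genes of radial glia and early astrocytes, 18 were tested, 14 had values below 0 and 1 was called lower. The median was -0.12 (-0.095 without culture 1). The called gene was Ttyh1, a membrane protein of neural stem cells and astrocytes, which fell from 262 ± 6.71 CPM to 185 ± 12.4 CPM (SD, n = 3), or -0.50 on the log2 scale (SE 0.093, adjusted p = 0.053 in the quasi-likelihood test of edgeR). Ednrb, the endothelin receptor of glia, Tnc, a matrix protein of radial glia, and Fabp7, their fatty acid binding protein, had -0.57, -0.44 and -0.41 (adjusted p = 0.14, 0.24 and 0.31). Under the block 6 were called lower and 1, Vim, higher, where 5.08% and 3.91% of all genes tested were. The calls of late and early genes did not hold when some libraries were left out. None was left without the vehicle library of culture 3 or of culture 4, without the 10HDA library of culture 1 or of culture 3, or without culture 1 or culture 3. In those fits 0 to 27 genes were called in all, in place of 66, so the loss was not particular to these lists.

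**Figure D3:**
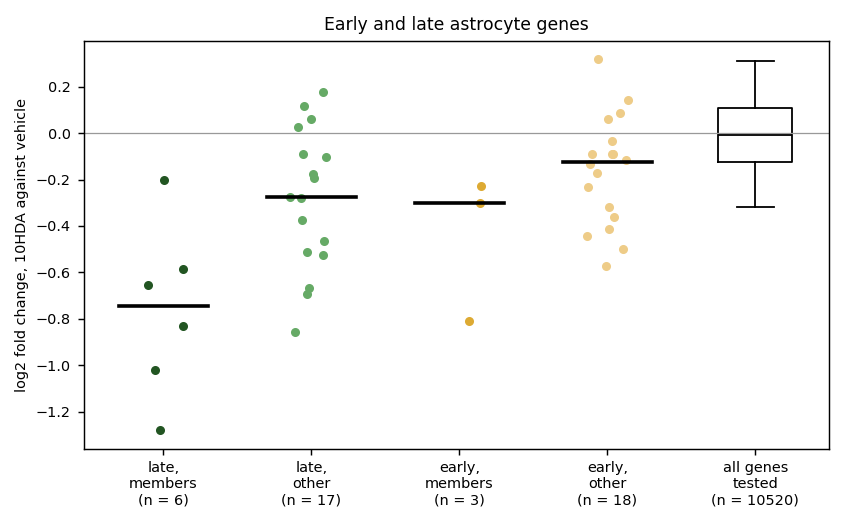
Log2 fold change, 10HDA against vehicle (y axis), of late and early astrocyte genes, each point a tested gene and each black line a median. The box shows all 10520 genes tested by their quartiles, with whiskers from the lowest to the highest twentieth. The medians are -0.74 and -0.28 for late members and other late genes, and -0.30 and -0.12 for early members and other early genes.

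The pathways that switch on astrocyte genes were looked up by role. Among the ligands, 2 of 11 were tested, Dll1 and Jag2 of the Notch pathway, with log2 fold changes of 0.082 and 0.19. Among the receptors 13 of 14 were tested, with a median of -0.092, and 0 were called. With culture as a block, the FGF receptor Fgfr2 and Notch2 were called lower (-0.39 and -0.32, adjusted p = 0.039 and 0.065 in the quasi-likelihood test of edgeR) and the EGF receptor Egfr higher (0.41, adjusted p = 0.010). Transducers such as Jak1, Stat3 and Smad1 had a median of 0.038 over 10 tested, with 0 called and with Smad5 called higher under the block (0.31, adjusted p = 0.060). The transcription factors and targets, among them Sox9 (0.062), Nfia (0.087) and Nfix (-0.11), had a median of -0.028 over 10 tested, and 0 were called with or without the block.

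Reactive astrocyte genes, which injury and inflammation induce, were mostly under the filter, with 3 of 32 tested and 0 called. Fkbp5, S100a10 and B3gnt5 came to 0.080, -0.22 and 0.28 on the log2 scale, with adjusted p of 0.80, 0.60 and 0.45 (quasi-likelihood test of edgeR). Gfap also belongs to this response, and was lower.

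The genes whose pattern over the 6 libraries was most like the members' mean were chosen by Pearson's correlation of log2 CPM, across all tested genes outside the members. They were AI464131 (r = 0.996), Dpysl5 (0.993), Tldc1 (0.991), Cdh13 (0.990) and Snph (0.990). The 6 points of each correlation share libraries and treatment groups. AI464131 had 33.3 ± 4.10 CPM in vehicle libraries and 18.1 ± 2.42 CPM in 10HDA libraries (SD, n = 3), and Cdh13, a cadherin, had 416 ± 44.8 and 295 ± 27.6 CPM. Dpysl5 and Snph encode proteins of neurons, and had smaller log2 differences of -0.24 and -0.26.

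Markers of the other cells a cortical culture can hold were measured beside the members. Neuron markers, 12 of 12 tested, summed to 9499 to 10037 CPM with vehicle and 7933 to 8950 CPM with 10HDA, with 11 of 12 below 0, 0 called and a median log2 fold change of -0.24. Under the block 5 of them were called lower, where 5.08% of all genes tested were. Excitatory neuron and interneuron markers had medians of -0.20 over 12 and -0.21 over 11 tested genes, with 0 called. Under the block, 3 of the 12 and 5 of the 11 were called lower, beside the same 5.08%. The 10 astrocyte markers summed to 1244 to 1522 CPM with vehicle and 916 to 1144 CPM with 10HDA, with a median of -0.66. Because they were picked with this contrast known, nothing is read from their order against the neuron lists.

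Oligodendrocyte lineage markers, 8 of 12 tested, had a median of -0.17 (-0.0085 without culture 1, where Sox10 was not tested) and summed to 366 to 472 CPM with vehicle and 278 to 396 CPM with 10HDA. Cspg4, a proteoglycan of oligodendrocyte progenitors and pericytes, fell (-0.92, SE 0.16, adjusted p = 0.043 in the quasi-likelihood test of edgeR). Pdgfra, the growth factor receptor of the progenitors, and Sox10, the lineage's transcription factor, had -1.21 and -1.44 (adjusted p = 0.15 and 0.20, and both called with the block). Olig2 had 0.24. Pericyte markers, 2 of 8 tested, summed to 32.8 to 37.3 CPM with vehicle and 15.5 to 21.5 CPM with 10HDA. Most of this was Pdgfrb and Cspg4, both called lower, and Cspg4 is also in the oligodendrocyte list. The other pericyte markers stayed under 1 CPM, with Higd1b at 0. Pdgfrb reached 10 CPM only with vehicle (15.2 to 16.1 against 6.17 to 9.66 CPM). So did Sox10 (12.0 to 18.7 against 2.19 to 9.59 CPM). Both passed the filter only through the group where they were high, so nothing is read from their direction.

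Dividing cell markers had a median of 0.068 over 7 of 10 tested and summed to 275 to 330 CPM with vehicle and 267 to 341 CPM with 10HDA. Intermediate progenitor markers had 0.35 over 4 of 8 tested, with sums of 156 to 189 against 197 to 211 CPM and 0 called. With the block 2 were called higher, Insm1 and Btg2, where 3.91% of all genes tested were. Of microglia, endothelial and ependymal markers 0 passed the filter. Microglia markers summed to 1.10 to 1.47 CPM with vehicle and 0.959 to 1.32 with 10HDA, with Tmem119 at 0. Endothelial markers summed to 3.11 to 4.42 and 2.90 to 3.76 CPM, with Ly6c1 at 0, and ependymal markers to 8.66 to 12.8 and 9.39 to 10.1 CPM, with Ccdc153 and Tmem212 at 0. Of 8 meningeal fibroblast markers, Pdgfra was tested, and the list summed to 93.7 to 153 CPM with vehicle and 33.6 to 74.0 with 10HDA. Most of that sum was Pdgfra itself (81.0 to 142 and 26.6 to 67.5 CPM), the receptor of oligodendrocyte progenitors already given. Dcn had 8.92 to 9.34 CPM with vehicle and 4.04 to 4.93 CPM with 10HDA. The others had at most 1.74 CPM in a library, with Slc6a13 at 0. The part of these cells in the members' differences was not tested.

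**Figure D4:**
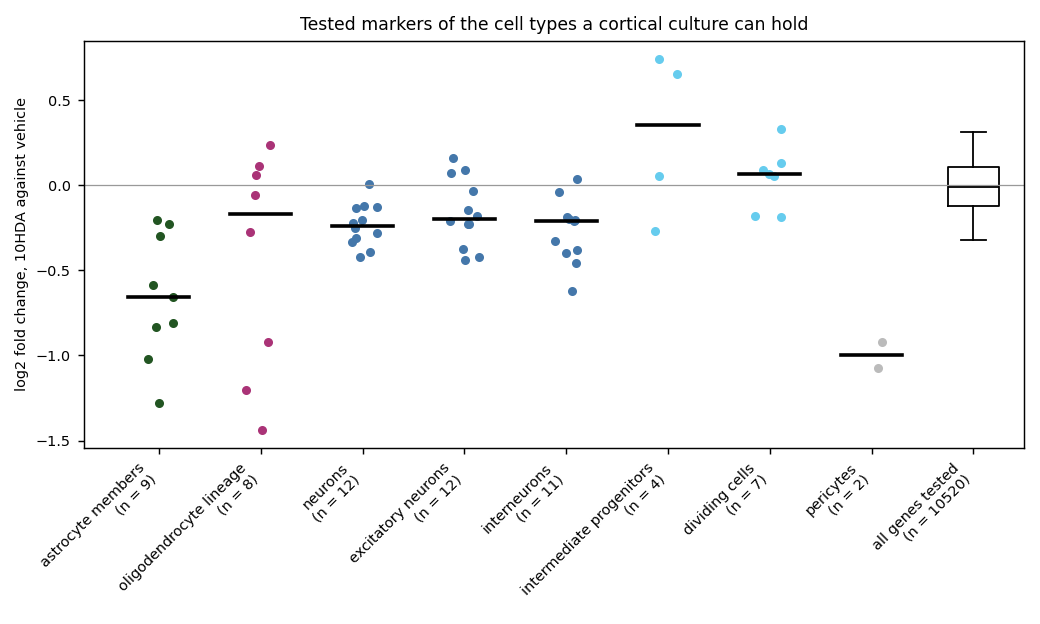
Log2 fold change, 10HDA against vehicle (y axis), of the tested markers of each cell type, each point a gene and each black line a median, with the number tested under each name. The box shows all genes tested by their quartiles, with whiskers from the lowest to the highest twentieth. The medians are -0.66 for the astrocyte members, -0.24 for neurons, 0.35 for intermediate progenitors and -0.996 for pericytes (2 tested genes). Pdgfrb of the pericyte list and Sox10 of the oligodendrocyte list passed the filter only through the vehicle libraries. The members were picked with this contrast known, so their place among the lists is a description.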

How the data were processed

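Total RNA from 3 primary cortical cultures, each with vehicle and with 10HDA, was made into 6 strand-specific libraries and sequenced with single reads of 50 bases. Without trimming, the authors mapped the reads to mm10 (Subjunc, Subread 1.4.4) and summarised them per gene with featureCounts on Gencode models. The strand setting of the counting is not given in the sources used here. The deposited values are raw counts per gene, beside a gene length, and were not filtered or normalized.

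Symbols and coordinates came from GENCODE M21 (GRCm38), which matched 98% of identifiers. The members and all gene lists were chosen with earlier results of these data known. A gene was kept where 3 or more libraries reached 10 CPM, as in the study's methods, and kept genes were compared with edgeR 4.0.16 (TMM scaling, glmQLFit, glmQLFTest) in R 4.3.3, with all 6 libraries, treatment as the only term, Benjamini-Hochberg adjustment over 10520 genes and a threshold of 0.1. Dividing the size of a log2 fold change by the root of its F gave the SE. CPM used TMM-scaled library totals of the kept genes, and differences within a culture used log2 of CPM with 0.5 added to each count. The smallest p of an exact permutation test is 0.1 at this size, so none was run. P-values of the main fit rest on the spread between libraries within a treatment. Those of the fit with culture as a block rest on how the treatment difference varied between these cultures. Named genes were the members, the 4 list genes of smallest p per list, and the 5 genes most like the members' mean. Aldh1l2, Gjb6, Stat3 and the genes of the closing observations were added after their values were seen. Some genes that this rule names are not reported here.

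The labels give each culture a library of each treatment, so culture numbers pair the libraries. As a check, deviations from the treatment means correlated across genes at 0.37, 0.24 and 0.62 within cultures and at -0.45 to 0.18 between them. Alternatives were DESeq2 1.42.0 (size factors, test), upper quartile scaling, library size alone, limma-voom (limma 3.58.1), other filters, a threshold of 0.05, a culture block, and leaving out each library or culture. The scripts were tested on simulated data.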

Additional observations from a re-analysis of the deposited data

How the results depend on the processing

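The members' log2 fold changes stayed below 0 in all 162 combinations of tested gene and alternative, and 147 of these values moved by less than the gene's spread between cultures. The threshold of 0.05 reuses the main fit, so its values could not move. The spread differed between genes, with an SD of 0.52 for Gfap and 0.017 for Aqp4, and most of the values that moved more were of Aqp4. Leaving out a library or a culture gave medians from -0.79 to -0.57. Scaling by library size alone gave -0.58 and moved the median of all genes tested from -0.0095 to 0.067. Calls moved more. With culture as a block, 945 genes were called in place of 66, with 9 late genes, 7 early genes and 17 pathway and partner genes outside the members in place of 2, 1 and 0. Without a filter on low counts, the numbers were 636, 9, 5 and 8. DESeq2's test called 170 genes, 3 early genes and 2 partner genes, and the 1 CPM filter 4 late genes. A threshold of 0.05 called 43 genes, with 1 late and 0 early genes, as did library size alone for the lists, 1 and 0, where 46.7% of the calls were higher against 31.8% with TMM. Leaving out a library or a culture, from 0 to 355 genes, 0 to 6 members, 0 to 6 late genes, 0 to 3 early genes and 0 to 7 partner genes were called. The 0 came without the 10HDA library of culture 1 (453 genes at an unadjusted p under 0.05) and without culture 3, and 2 genes were called without culture 1 (665 unadjusted) and when the vehicle library of culture 3 was removed. The 355 came without the 10HDA library of culture 4. Slco1c1 was called in 5 of 18 alternatives, Gfap, Aldoc, Aldh1l1 and Clu in 12 to 14, Aqp4 in 5, and Slc1a2, Slc1a3 and Gja1 in 0. The cause of these differences was not tested. Depth limits S100b, with 5 to 10 counts in a library.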

Other observations

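Some astrocyte genes under the filter of 10 CPM could be tested with a filter of 1 CPM, under which 0.509% of 15311 genes were called. The genes in this paragraph were chosen after their values were seen. Cp, which encodes the ferroxidase ceruloplasmin and is listed among reactive astrocyte genes, had 1.28, 1.70 and 2.21 CPM with vehicle in cultures 1, 3 and 4 and 4.91, 3.61 and 5.05 CPM with 10HDA. It rose, with a log2 fold change of 1.38 (SE 0.26, adjusted p = 0.063 in the quasi-likelihood test of edgeR). Emp1 and Clcf1, also of that list, were higher in every 10HDA library than in every vehicle library but did not pass (1.10 and 0.79, adjusted p = 0.30 and 0.34). Ptx3 of the same list was lower in every 10HDA library (-0.51, adjusted p = 0.48).

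Both late astrocyte genes called under this filter in addition to Ppp1r3c and Cbs were lower with 10HDA. Cldn10, a claudin, had 6.96, 6.65 and 6.46 CPM with vehicle and 3.33, 3.47 and 3.48 CPM with 10HDA, a log2 fold change of -0.95 (SE 0.18, adjusted p = 0.064 in the quasi-likelihood test of edgeR). Slc7a10, an amino acid transporter of astrocytes, had 3.21, 3.56 and 2.89 CPM with vehicle and 1.14, 1.55 and 0.561 CPM with 10HDA, a log2 fold change of -1.49 (SE 0.32, adjusted p = 0.099 from the same test). In both genes the groups did not overlap.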
